A study of Mus musculus with 74 samples.

Results

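The genes described here are 10 mouse genes of triglyceride breakdown and of the lipid droplet surface in adipocytes. They are the lipases and lipase activator Pnpla2 (ENSMUSG00000025509), Lipe (ENSMUSG00000003123), Mgll (ENSMUSG00000033174) and Abhd5 (ENSMUSG00000032540), the lipase inhibitor G0s2 (ENSMUSG00000009633), and the droplet proteins Plin1 (ENSMUSG00000030546), Plin2 (ENSMUSG00000028494), Plin4 (ENSMUSG00000002831), Plin5 (ENSMUSG00000011305) and Cidec (ENSMUSG00000030278). They were chosen by name from the 55487 genes of the count table, and the regions given to them by the deposited annotation were 39 of 42572 open regions in brown fat, 28 of 25050 open regions in white fat and 10 of 10368 BMAL1 peaks. All 10 passed the filter on low counts in every RNA comparison. RNA and nuclei came from the brown fat (BAT) and the inguinal white fat (WAT) of Adiponectin-Cre:NuTRAP mice, sampled at ZT1, ZT5, ZT9, ZT13, ZT17 and ZT21 (Zeitgeber time, hours from lights on). In these mice, a Cre recombinase driven by the Adiponectin promoter switches on a tag on ribosomes and nuclei in adipocytes, in every group alike. Each depot and time had 3 RNA libraries, made from tagged ribosomes, and 3 ATAC-seq libraries, made from sorted nuclei, except BAT at ZT17, with 2 RNA libraries. BMAL1, a core clock transcription factor, was mapped by ChIP-seq at ZT4 in inguinal WAT of C57BL6J mice, with 2 libraries. Sex, age, diet and feeding are not in the labels. The labels do not state that replicates are separate animals, so every p measures the spread between libraries only.

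Fat is stored in adipocytes as triglyceride inside lipid droplets, and lipolysis releases it as fatty acids and glycerol. Pnpla2 (ATGL) removes the first fatty acid, Lipe (hormone-sensitive lipase) acts on the diacylglycerol that remains, and Mgll splits the last monoacylglycerol. Abhd5 activates Pnpla2 and G0s2 inhibits it, while perilipins coat the droplet: Plin1 holds Abhd5 until adrenergic signalling releases it. Plin2 is a widely expressed coat, Plin4 is a coat of adipocytes, Plin5 is best known from oxidative tissues, and Cidec promotes the fusion of droplets into larger ones.

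Total counts per RNA library ranged from 4980147 to 46274438 for BAT and from 1301522 to 6481154 for WAT, so low genes were measured less precisely in WAT. Gm42418, CT010467.1 and Lars2, which is itself a protein-coding gene, were counted together and are called ribosomal RNA loci here. They made up 0.813% to 4.64% of BAT counts and 5.26% to 66.0% of WAT counts. Their share was over 50% in 3 WAT libraries (ZT5 replicate 3, ZT9 replicate 3 and ZT17 replicate 2). In ATAC libraries the deposited regions held 3959384 to 12811242 tags for BAT and 1623006 to 5294923 for WAT. Checked against their markers, all libraries expressed the adipocyte list of 6 genes, with a summed level of 27291 to 66541 CPM in BAT and 9184 to 82526 CPM in WAT (CPM are counts scaled by library size). The 4 brown adipocyte markers summed to 6173 to 15117 CPM in BAT and 86.7 to 1199 CPM in WAT. Markers of some other cells were higher in WAT: fibroblast genes summed to 5.75 to 48.9 CPM in BAT against 111 to 854 CPM in WAT, macrophage genes to 7.09 to 12.4 CPM in BAT against 20.98 to 194 CPM in WAT, and lymphocyte genes to 0 to 0.866 CPM in BAT and 25.2 to 88.6 CPM in WAT.

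BMAL1 peaks lay at 6 of the 10 genes and at the promoter of 5. Among genes tested in WAT RNA, 50.3% had a peak and 35.8% a promoter peak. Scores are those of the authors' peak caller on a set pooled over both ChIP libraries, and ranks are within that list. The strongest was at the Mgll promoter (chr6:88724431-88724643, mm10), with a score of 16.6 and rank 349, and signals of 16.8 and 17.1 tags in the libraries at one fixed total. At an upstream start site of Lipe (chr7:25396155-25396367), annotated as a promoter, the score was 12.5 and the rank 729. This Lipe peak and the Pnpla2 peak lay in no open region of either depot. The open WAT region nearest to this upstream Lipe start site was chr7:25395638-25395788, 274 bases after it. At the other Lipe start site the open WAT region was chr7:25390191-25390341. Lower scores were given to the promoters of Plin4 (9.93), Plin2 (8.73) and Abhd5 (6.68) and to an intron of Pnpla2 (8.56, chr7:141456863-141457075), and 2 further peaks each at Mgll and Plin2, all away from the promoter, scored 5.14 to 5.65. No peak was listed at G0s2, Plin1, Plin5 or Cidec. Of the 10 peaks, 7 overlapped an open WAT region by at least 75 bp, or 70% against 55.9% of all BMAL1 peaks.

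The promoter sequences below show where the E-box bound by BMAL1 dimers occurs in these genes. They run 5′ to 3′ on the gene's strand, from 250 bases before to 50 bases after the RefSeq start site (GRCm38.p6, the assembly also called mm10). Capitals mark CACGTG or, in the second Mgll window, AACGTG. Lipe and Mgll carried the strongest BMAL1 peaks, Plin2 had the largest RNA rhythm of the coats, and Pnpla2 and G0s2 are shown as the lipase and its inhibitor, with no such motif in the window.
Plin2, chr4:86670010-86670309, minus strand: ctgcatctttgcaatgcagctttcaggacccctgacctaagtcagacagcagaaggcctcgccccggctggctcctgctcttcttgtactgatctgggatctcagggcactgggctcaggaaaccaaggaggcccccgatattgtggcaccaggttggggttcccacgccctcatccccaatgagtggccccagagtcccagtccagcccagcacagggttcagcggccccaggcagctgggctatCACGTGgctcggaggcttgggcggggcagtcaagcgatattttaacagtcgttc
Mgll, chr6:88724162-88724461, plus strand: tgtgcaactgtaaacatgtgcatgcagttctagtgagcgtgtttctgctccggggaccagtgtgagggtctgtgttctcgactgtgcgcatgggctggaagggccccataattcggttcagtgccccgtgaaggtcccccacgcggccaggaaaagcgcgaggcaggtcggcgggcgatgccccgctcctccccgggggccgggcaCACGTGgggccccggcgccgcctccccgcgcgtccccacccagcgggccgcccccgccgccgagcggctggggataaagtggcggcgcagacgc
Mgll, second start site, chr6:88724454-88724753, plus strand: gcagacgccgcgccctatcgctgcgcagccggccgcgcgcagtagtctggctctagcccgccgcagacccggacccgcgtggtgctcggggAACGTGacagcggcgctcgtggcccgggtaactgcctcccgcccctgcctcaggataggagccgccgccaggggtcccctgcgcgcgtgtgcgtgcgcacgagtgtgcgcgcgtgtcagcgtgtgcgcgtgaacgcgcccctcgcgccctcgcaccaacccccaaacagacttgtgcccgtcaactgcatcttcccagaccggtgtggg
Lipe, chr7:25395938-25396237, minus strand: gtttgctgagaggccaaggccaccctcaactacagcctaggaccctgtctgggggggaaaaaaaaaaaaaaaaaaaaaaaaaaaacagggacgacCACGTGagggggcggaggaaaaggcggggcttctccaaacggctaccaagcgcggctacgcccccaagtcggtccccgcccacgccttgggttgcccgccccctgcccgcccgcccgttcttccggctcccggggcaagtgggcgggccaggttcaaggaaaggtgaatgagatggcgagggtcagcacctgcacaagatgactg
Pnpla2, chr7:141454938-141455237, plus strand: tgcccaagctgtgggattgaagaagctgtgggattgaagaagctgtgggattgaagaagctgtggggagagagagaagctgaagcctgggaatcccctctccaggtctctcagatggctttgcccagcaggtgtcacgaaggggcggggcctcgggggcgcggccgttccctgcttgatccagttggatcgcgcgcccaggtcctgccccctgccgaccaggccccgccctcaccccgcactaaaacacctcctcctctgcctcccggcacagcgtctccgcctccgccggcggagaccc
G0s2, chr1:193273139-193273438, minus strand: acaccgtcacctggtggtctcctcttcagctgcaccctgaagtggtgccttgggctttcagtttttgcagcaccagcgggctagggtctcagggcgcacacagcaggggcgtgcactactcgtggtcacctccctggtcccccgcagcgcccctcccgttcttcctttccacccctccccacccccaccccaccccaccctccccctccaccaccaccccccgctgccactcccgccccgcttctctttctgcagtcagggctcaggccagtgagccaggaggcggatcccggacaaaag

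CACGTG, searched on both strands, began at base -4 from the start site in Plin2, at -44 in Mgll and at -155 in Lipe, and AACGTG at -159 in the second Mgll window. No 2 matches overlapped. The Plin2 motif lay inside both its BMAL1 peak and the open WAT region at the start site. The AACGTG match of Mgll lay inside the BMAL1 peak there, while CACGTG lay 58 bases outside that peak and the Lipe CACGTG 13 bases outside the peak at Lipe. All 10 genes were matched in RefSeq, with 14 windows in all, of which 6 overlapped a BMAL1 peak. CACGTG was present in 7.15% of 32851 promoter windows of this length and AACGTG in 4.68%; of the 5505 windows that overlap a BMAL1 peak, 16.5% held CACGTG. The DR1 motif of PPAR dimers, also searched, had no match in these windows. It was present in only 13 of the 32851 promoter windows (0.0396%). At that share a match in so few windows was unlikely, so the search cannot tell whether these genes lack DR1 sites. Each match is a sequence of letters, not a measured binding site.

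Around the day, G0s2 showed the largest RNA rhythm of the 10 genes in both depots, highest in the dark. Lipe and Cidec were also rhythmic in BAT, and Plin2 and Pnpla2 in WAT. A cosine and a sine of 24 h were fitted in each depot and tested with edgeR's quasi-likelihood test, with p adjusted over all genes by Benjamini-Hochberg and a call at an adjusted p under 0.05; sizes are fitted peak-to-trough differences on the log2 scale ± SE. In BAT 3 of the 10 genes were called, against a background of 9.17% of 12394 genes. In WAT 3 of 10 were called, against 9.90% of 12703 genes. The median fitted size over the 10 genes was 0.62 in BAT, where it was 0.49 over all genes tested, and 1.13 in WAT, where it was 0.98.

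**Figure D1:**
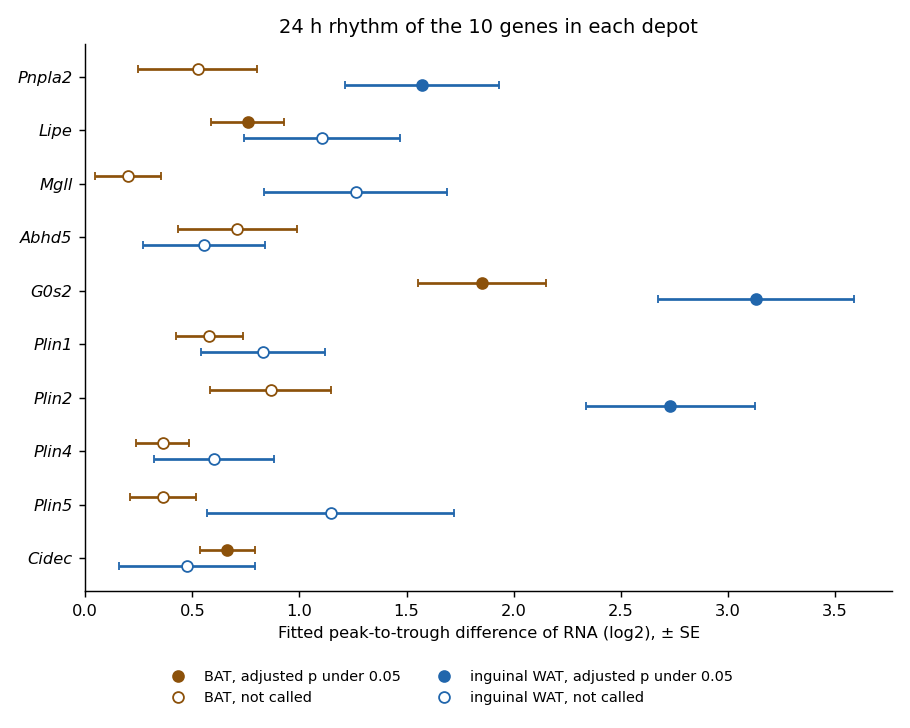
Fitted 24 h peak-to-trough difference of RNA (x axis, log2 scale, bars ± SE) of the 10 genes (y axis) in BAT (brown, upper point of each pair, 17 libraries) and inguinal WAT (blue, lower point, 18 libraries); filled points have an adjusted p under 0.05. G0s2 was called in both depots (1.85 in BAT, 3.13 in WAT), Lipe and Cidec in BAT, Plin2 and Pnpla2 in WAT.

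G0s2, the inhibitor, had 514, 449.9 and 471 CPM at ZT1 in BAT, 239, 186 and 349 CPM at ZT5, 735, 615 and 299 CPM at ZT9, 1113, 557 and 923 CPM at ZT13, 917 and 1094 CPM at ZT17, and 1018, 733 and 1027 CPM at ZT21. The 3 libraries at ZT5 included the lowest values and overlapped with ZT9. In WAT it had 251, 252 and 134 CPM at ZT1, 109, 80.7 and 139 CPM at ZT5, 279, 131 and 389 CPM at ZT9, 219, 107 and 406 CPM at ZT13, 1256, 842 and 1338 CPM at ZT17, and 1207, 635 and 835 CPM at ZT21. All 6 WAT libraries of ZT17 and ZT21 lay above the other 12. Its fitted peak was at ZT16.9 in BAT, with a size of 1.85 ± 0.30 (adjusted p = 0.00378, n = 17), and at ZT17.9 in WAT, with 3.13 ± 0.46 (adjusted p = 0.00130, n = 18). The highest time mean was 3.89 times the lowest in BAT and 10.5 times in WAT. Both calls were kept without any single library. Mitochondrial genes made up 0.685% to 9.43% of counts in the 6 WAT libraries of ZT17 and ZT21 and 2.52% to 27.6% in the other 12, and the WAT calls of G0s2 and Plin2 were kept without mitochondrial genes and ribosomal RNA loci. The difference of the rhythm between depots missed the threshold for G0s2 (adjusted p = 0.193).

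Pnpla2, the lipase that G0s2 inhibits, had 600.1, 1006 and 873 CPM at ZT1 in BAT, 976, 859 and 533 CPM at ZT5, 576, 419 and 367 CPM at ZT9, 688, 812 and 488 CPM at ZT13, 887 and 673 CPM at ZT17, and 805, 434 and 833 CPM at ZT21. The BAT times overlapped widely, and the fit gave 0.52 ± 0.28 (adjusted p = 0.344). In WAT Pnpla2 had 224, 136 and 252 CPM at ZT1, 453, 407 and 464 CPM at ZT5, 390.0, 576 and 334 CPM at ZT9, 496, 464 and 759.5 CPM at ZT13, 399, 550.3 and 247 CPM at ZT17, and 132, 272 and 106 CPM at ZT21. Libraries of ZT5, ZT9 and ZT13 lay above all those of ZT1 and ZT21. The WAT fit peaked at ZT11.1 with a size of 1.57 ± 0.36 (adjusted p = 0.0197). That call was lost when any 1 of 5 WAT libraries was left out: ZT1 replicate 2 (0.0517), ZT9 replicate 2 (0.0519), ZT13 replicate 3 (0.0619), ZT21 replicate 1 (0.0682) or ZT21 replicate 3 (0.0607). Across libraries, the log2 levels of G0s2 and Pnpla2 had a Pearson r of -0.07 in BAT (permutation p = 0.804, n = 17) and -0.38 in WAT (permutation p = 0.122, adjusted over both depots 0.245, n = 18). Spearman's rho was -0.14 in BAT (permutation p = 0.598) and -0.37 in WAT (permutation p = 0.133, adjusted 0.265). Without the 2 libraries farthest from the median of Pnpla2, r was -0.29 in BAT and -0.13 in WAT, so no relation was shown.

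Lipe, the second lipase, had 816, 764 and 889.6 CPM at ZT1 in BAT, 762, 582 and 994 CPM at ZT5, 1111, 1319 and 1607 CPM at ZT9, 1153, 1343 and 1412 CPM at ZT13, 1039 and 1269 CPM at ZT17, and 849, 1220.1 and 1016 CPM at ZT21. All ZT9 and ZT13 libraries lay above all ZT1 and ZT5 libraries. The fit peaked at ZT13.5 with 0.76 ± 0.17 (adjusted p = 0.0271). Leaving out BAT ZT1 replicate 2 (0.0683), ZT1 replicate 3 (0.0532) or ZT13 replicate 3 (0.0671) ended the call, as did time as a factor (0.0563). In WAT Lipe ran from 442 to 1496 CPM, and its size of 1.11 ± 0.36 missed the threshold (adjusted p = 0.108). Mgll, the last lipase, had sizes of 0.20 ± 0.16 in BAT (adjusted p = 0.594) and 1.26 ± 0.43 in WAT (adjusted p = 0.121), where its 3 libraries at ZT5 had 1209.9, 1191 and 1201 CPM and those at ZT17 had 3525, 2039.9 and 4201 CPM. Abhd5, the activator, was not called in BAT (0.71 ± 0.28, adjusted p = 0.174) or WAT (0.55 ± 0.28, adjusted p = 0.381).

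**Figure D2:**
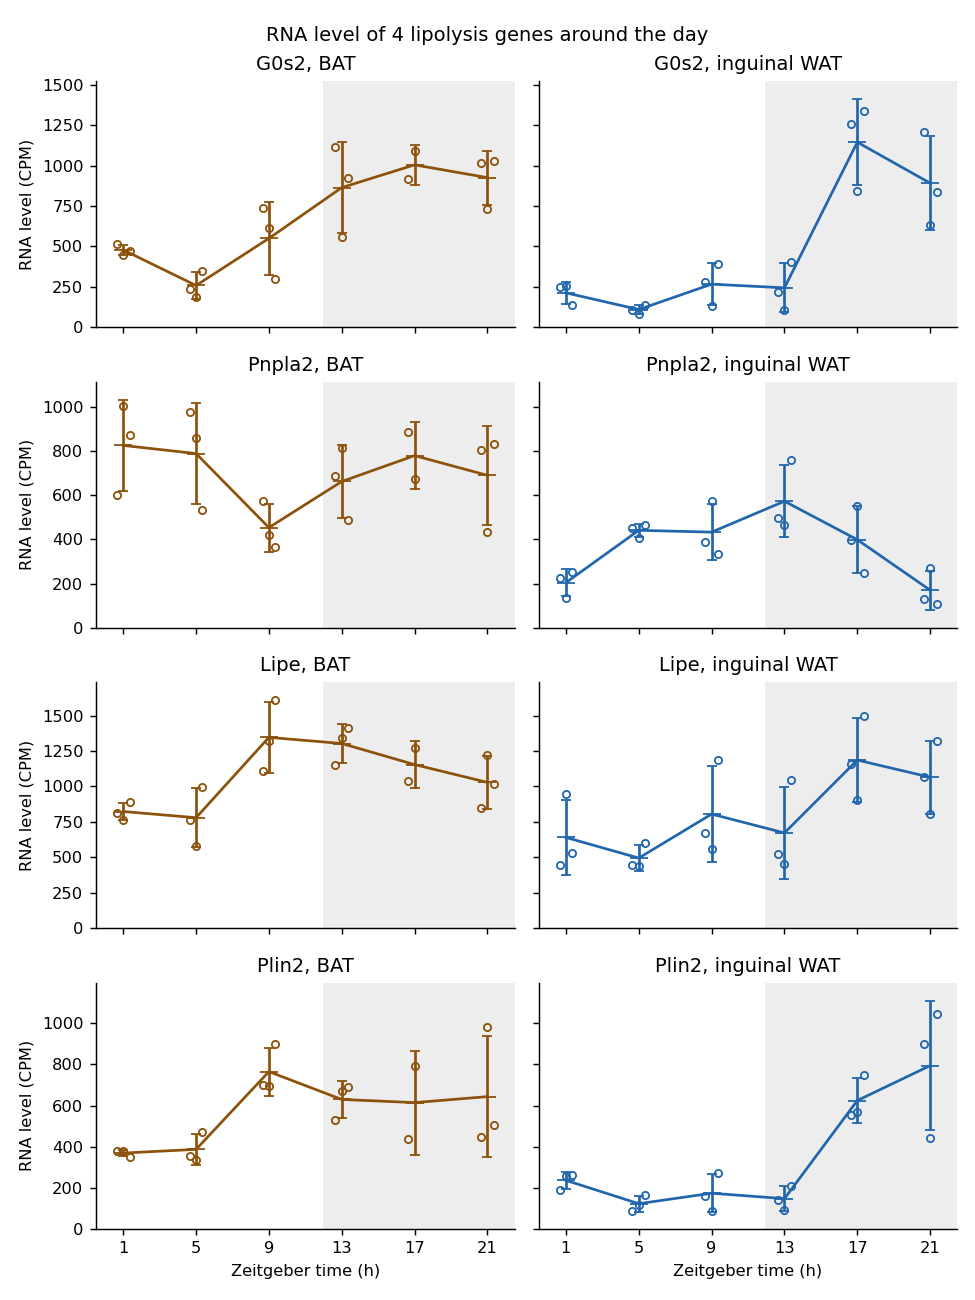
RNA level (y axis, CPM) of G0s2, Pnpla2, Lipe and Plin2 against Zeitgeber time (x axis, h) in BAT (left, brown) and inguinal WAT (right, blue); circles are libraries, lines join time means, bars are ± SD of 3 libraries (2 for BAT at ZT17), and grey marks ZT12 onward. In WAT, G0s2 and Plin2 were highest at ZT17 and ZT21, when Pnpla2 was 399 ± 152 and 170.2 ± 89.0 CPM.

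Among the coats, Plin2 had 189, 256 and 262 CPM at ZT1 in WAT, 88.5, 114 and 164 CPM at ZT5, 161, 88.0 and 270.0 CPM at ZT9, 138, 91.2 and 211 CPM at ZT13, 552, 569.9 and 750.5 CPM at ZT17, and 897, 440.4 and 1045 CPM at ZT21. Its 6 libraries of ZT17 and ZT21 did not overlap with the other 12. The WAT fit peaked at ZT19.4 with 2.73 ± 0.39 (adjusted p = 0.00119), and the call was kept without any single library. In BAT Plin2 had 378, 378 and 351 CPM at ZT1, 355, 333 and 472 CPM at ZT5, 698, 696 and 900.0 CPM at ZT9, 528, 672 and 688 CPM at ZT13, 435 and 793 CPM at ZT17, and 447, 980.1 and 503 CPM at ZT21. The BAT fit, with 0.87 ± 0.28, missed the threshold (adjusted p = 0.101). Cidec, the fusion protein, averaged 669 ± 38.8 CPM at ZT5 and 1100.0 ± 152 CPM at ZT17 in BAT (SD, n = 3 and 2). Its BAT fit peaked at ZT16.9 with 0.66 ± 0.13 (adjusted p = 0.0126), and time as a factor gave an adjusted p of 0.0623. In WAT Cidec had 0.48 ± 0.32 (adjusted p = 0.566).

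Plin1, the coat that gates lipolysis, gave 0.58 ± 0.16 in BAT (adjusted p = 0.0567) and 0.83 ± 0.29 in WAT (adjusted p = 0.131). Plin4 gave 0.36 ± 0.13 in BAT (adjusted p = 0.123) and 0.60 ± 0.28 in WAT (adjusted p = 0.312), and Plin5 gave 0.36 ± 0.16 in BAT (adjusted p = 0.219) and 1.15 ± 0.58 in WAT (adjusted p = 0.363). Some libraries decided how many of the 10 genes were called. Without BAT ZT21 replicate 2, in which Plin2 was at its BAT maximum, 5 were called in BAT, with Plin2 (0.00716) and Plin1 (0.0257) added. Without WAT ZT9 replicate 3, 6 were called in WAT, with Lipe (0.0125), Mgll (0.00462) and Plin1 (0.0278) added. The calls over all genes moved too. With single libraries left out they were 460 to 3383 in BAT, against 1136 with all libraries. In WAT they were 472 to 2519, against 1257. Leaving out the 3 WAT libraries with over 50% ribosomal RNA loci gave 7 of 10, adding Lipe, Mgll, Plin1 and Plin5 (adjusted p 0.00876 to 0.0439), while 2689 genes were called in all. In the authors' deposited tables of the JTK_CYCLE rhythm test, the lowest q of the 10 genes was 0.0574 for G0s2 in BAT and 0.0543 for G0s2 and Plin2 in WAT.

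The rhythms of Plin2, Pnpla2 and Plin1 differed between depots. Tested as the interaction of depot with the 24 h terms over all 35 libraries, 3 of the 10 genes were called, against 12.9% of 10999 genes. Subtracting the fitted WAT curve from the BAT curve left a wave whose height, from midline to peak, was 1.30 ± 0.24 for Plin2 (adjusted p = 0.00662), 1.08 ± 0.23 for Pnpla2 (adjusted p = 0.0116) and 0.54 ± 0.16 for Plin1 (adjusted p = 0.0482). Over the 10 genes the median was 0.61, and over all genes 0.53. Plin2 and Pnpla2 kept their calls without any of the 35 libraries in turn. Plin1 lost its call when any 1 of 26 libraries was left out and under 3 other settings, with an adjusted p of up to 0.163. Without WAT ZT9 replicate 3, 6 of 10 were called, adding Lipe (0.0196), G0s2 (0.0255) and Mgll (0.00180). Without the 3 WAT libraries rich in ribosomal RNA loci 7 were called, adding also Plin5 (0.0139). Over all genes, leaving out single libraries gave 571 to 3015 calls, and leaving out those 3 gave 3641, against 1418 with all libraries.

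Comparing the dark with the light times, taken as ZT13 to ZT21 and ZT1 to ZT9 since the labels give no light schedule, G0s2 rose in both depots, with Cidec in BAT and Plin2 in WAT. In BAT 2 of 10 genes were called, both higher in the dark, against 1.30% of genes in either direction, 0.855% higher and 0.444% lower. G0s2 ranged from 557 to 1113 CPM with a median of 971 CPM in 8 dark libraries, and from 186 to 735 CPM with a median of 449.9 CPM in 9 light libraries. The ranges overlapped, and the log2 difference was 1.17 ± 0.19 (adjusted p = 0.00584). Cidec ranged from 908 to 1208 CPM in the dark and from 639 to 946 CPM in the light, a difference of 0.43 ± 0.09 (adjusted p = 0.0280). Its call was lost, leaving 1 gene called, when any 1 of 8 BAT libraries was left out: ZT1 replicate 1 or 2, ZT5 replicate 1 or 2, ZT9 replicate 3, ZT13 replicate 1 or 3, or ZT17 replicate 2 (adjusted p 0.0509 to 0.135). Leaving out single BAT libraries gave 59 to 194 calls over all genes, against 161 with all libraries.

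In WAT 2 of 10 were called, both higher in the dark, against 7.50% of genes in either direction, 4.34% higher and 3.16% lower. G0s2 ranged from 107 to 1338 CPM with a median of 835 CPM in 9 dark libraries, and from 80.7 to 389 CPM with a median of 139 CPM in 9 light libraries. The ranges overlapped, with ZT13 at 219, 107 and 406 CPM, and the difference was 1.82 ± 0.27 (adjusted p = 0.00138). Plin2 ranged from 91.2 to 1045 CPM in the dark and from 88.0 to 270.0 CPM in the light, a difference of 1.34 ± 0.24 (adjusted p = 0.00499). Pnpla2 had 0.05 (adjusted p = 0.920). Without WAT ZT9 replicate 3, 5 of 10 were called, adding Lipe (0.0280), Plin1 (0.0393) and Plin5 (0.0250). Without the 3 libraries rich in ribosomal RNA loci 6 were called, adding also Mgll (0.0318). Calls over all genes were 188 to 2013 with single libraries left out and 2845 without those 3, against 953 with all libraries. In the same comparison 3 of 4 fibroblast markers fell in the dark, and their part in these differences was not tested.

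Between depots, Plin5, Plin2 and Pnpla2 were higher in BAT and Mgll was lower. A call needed an adjusted p under 0.05 and at least a 2-fold difference, over 10999 genes in 35 libraries. With these, 4 of 10 genes were called, 3 higher and 1 lower in BAT, against 47.3% of all genes, 23.1% higher and 24.2% lower. RNA pulled down from a depot cannot tell apart more tagged cells of one kind from more RNA in each. Plin5, the coat of oxidative tissues, had the largest difference. It ranged from 86.8 to 152 CPM in 17 BAT libraries with a median of 108 CPM, and from 3.20 to 37.0 CPM in 18 WAT libraries with a median of 17.8 CPM, with as few as 18 counts. The depots did not overlap, and the log2 difference was 2.89 ± 0.24 (adjusted p = 2.22e-13). The 5 skeletal muscle markers, from another tissue that expresses Plin5, summed to 21.9 to 633 CPM in BAT and 5.86 to 409 CPM in WAT, and their part in the difference was not tested.

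Mgll ranged from 520.5 to 920.3 CPM in BAT with a median of 657 CPM, and from 796 to 4201 CPM in WAT with a median of 2046 CPM. The ranges overlapped between 796 and 920.3 CPM, and the log2 difference was -1.52 ± 0.18 (adjusted p = 2.38e-09). Plin2 ranged from 333 to 980.1 CPM in BAT with a median of 503 CPM, and from 88.0 to 1045 CPM in WAT with a median of 233 CPM. Its difference was 1.09 ± 0.23 (adjusted p = 6.81e-05), under 2-fold without WAT ZT9 replicate 2 (0.97) or WAT ZT13 replicate 2 (0.99). Pnpla2 had medians of 688 CPM in BAT against 395 CPM in WAT, with a difference of 1.02 ± 0.20 (adjusted p = 2.17e-05). That value lay at the fold limit. It was below 1 when any 1 of 11 libraries was left out (lowest 0.93), under another scaling (0.93) and with DESeq2.

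Another 5 genes passed the p but not the fold. G0s2 (0.91 ± 0.20, adjusted p = 1.45e-04), Lipe (0.46 ± 0.15, adjusted p = 0.00612) and Plin1 (0.34 ± 0.12, adjusted p = 0.0121) were higher in BAT. Abhd5 (-0.79 ± 0.13, adjusted p = 2.06e-06) and Plin4 (-0.38 ± 0.10, adjusted p = 9.76e-04) were lower in BAT. Cidec was at 639 to 1208 CPM in BAT and 447 to 1234 CPM in WAT, with a difference of 0.11 ± 0.12 (adjusted p = 0.371). The median difference of the 10 genes was 0.40, and of all genes 0.04.

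**Figure D3:**
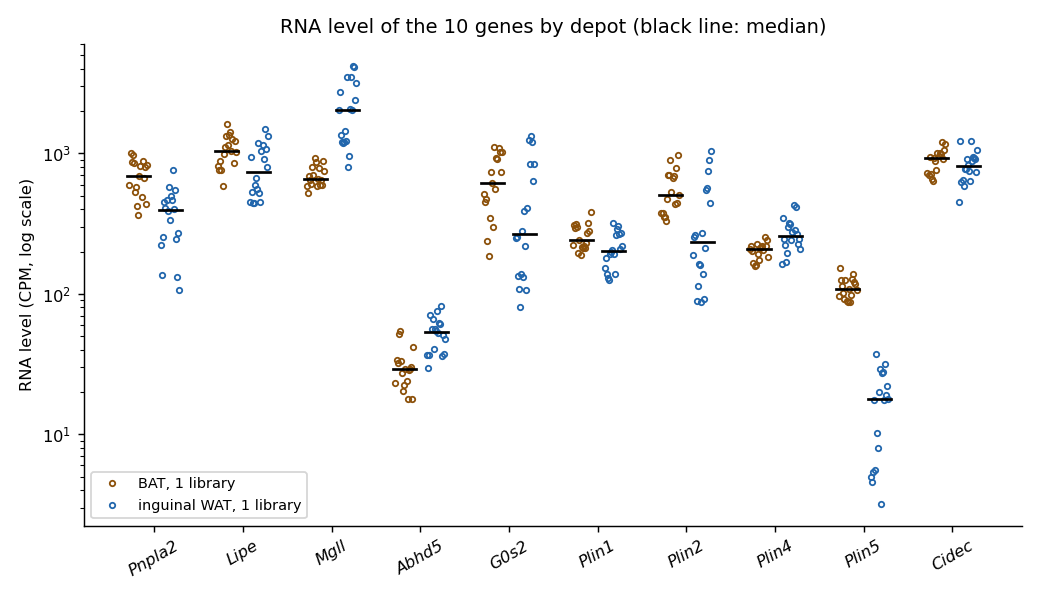
RNA level (y axis, CPM, log scale) of the 10 genes (x axis) in BAT (brown, left of each pair, 17 libraries) and inguinal WAT (blue, right, 18 libraries); each circle is a library, in order of time from left to right, and black lines are medians. Plin5 did not overlap between depots, Mgll was lower in BAT, and Cidec had medians of 933 CPM in BAT and 807 CPM in WAT.

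Levels of different genes were compared per length, with the authors' deposited TPM (a level scaled by length and depth). In BAT the order of the median TPM ran G0s2 (647), Cidec (424), Lipe (327), Pnpla2 (303), Plin2 (267), Mgll (175), Plin1 (96.5), Plin5 (53.7), Plin4 (27.3) and Abhd5 (11.5). In WAT it ran Mgll (521), Cidec (407), G0s2 (405), Lipe (253), Pnpla2 (171), Plin2 (122), Plin1 (76.4), Plin4 (37.4), Abhd5 (24.9) and Plin5 (6.65). The activator Abhd5 was thus near the bottom in both depots. Ranges over libraries overlapped between all neighbours in both orders. By mean ± SD, neighbours stood apart in BAT from Plin2 to Mgll, Mgll to Plin1, Plin1 to Plin5 and Plin4 to Abhd5, and in WAT from Plin1 to Plin4 and Abhd5 to Plin5.

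Open regions called rhythmic were found at G0s2, Plin2, Mgll and Abhd5 in BAT and at Pnpla2, Plin2 and Mgll in WAT. Their numbers were near the share over all regions. In BAT 6 of 39 regions were called rhythmic, against 18.9% of 42572 regions, and in WAT 6 of 28, against 15.8% of 25050. The median fitted size was 0.19 in BAT, with 0.26 over all regions, and 0.34 in WAT, with 0.25 over all regions. In WAT both regions of Pnpla2 were called. The region at its start site (chr7:141455068-141455218) had 70.0, 83.7 and 78.4 CPM at ZT1, 90.4, 89.5 and 81.4 CPM at ZT5, 87.8, 65.5 and 75.4 CPM at ZT9, 69.5, 65.8 and 68.7 CPM at ZT13, 72.6, 53.6 and 70.4 CPM at ZT17, and 64.6, 73.6 and 50.7 CPM at ZT21. The ZT5 libraries were the highest group, with some overlap with ZT1 and ZT9. The fit peaked at ZT5.1 with 0.39 ± 0.10 (adjusted p = 0.0260), against ZT11.1 for RNA. Leaving out ZT5 replicate 1 (0.0652), ZT5 replicate 2 (0.0797) or ZT17 replicate 2 (0.0661) ended that call, as did time as a factor (0.0724). The region at -2925 bases from the start site (chr7:141452188-141452338) peaked at ZT5.5 with 0.43 ± 0.12 (adjusted p = 0.0492), and lost its call when any 1 of 13 libraries was left out and with time as a factor (0.169). Its BAT counterpart had 0.27 ± 0.10 (adjusted p = 0.143).

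At Plin2 the start site region of WAT (chr4:86669981-86670131), which holds the CACGTG printed above, had 37.9, 31.2 and 38.0 CPM at ZT5, its lowest time, and 45.5, 49.0 and 45.3 CPM at ZT17. It peaked at ZT18.4 with 0.32 ± 0.09 (adjusted p = 0.0431). That call was lost when any 1 of 14 libraries was left out (adjusted p up to 0.171). It was also lost with DESeq2 (0.0671), with a replicate block (0.0518) and with time as a factor (0.120). The authors' deposited JTK_CYCLE test gave the region a q of 0.00651. Among the other regions called here in either depot, that test gave 0.0248 for a Mgll region in BAT (chr6:88761296-88761446). The rest had q of 0.0547 to 0.204, with 0.122 for the Pnpla2 start site region. In BAT the start site region had 0.15 ± 0.11 (adjusted p = 0.564), and a region at -25123 bases from the start site was called, at ZT12.7 with 0.51 ± 0.12 (adjusted p = 0.0156). At G0s2 the start site regions were not called in BAT (0.14 ± 0.06, adjusted p = 0.209) or WAT (0.26 ± 0.12, adjusted p = 0.280). A weak region at -13154 bases from the G0s2 start site (chr1:193286267-193286417) was called in BAT, at ZT15.0 with 0.84 ± 0.19 (adjusted p = 0.0118). It had 6.31 to 9.37 CPM in the 9 libraries of ZT1, ZT5 and ZT9, and 11.8, 12.6 and 14.4 CPM at ZT13.

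Mgll had 11 regions in BAT and 8 in WAT, of which 3 in each depot were called, all in introns. The largest was in WAT (chr6:88746451-88746601, 21822 bases after the start site), under a BMAL1 peak with a score of 5.65. It had 34.1, 26.3 and 34.3 CPM at ZT1, 38.4, 45.9 and 32.2 CPM at ZT5, 39.1, 24.2 and 20.9 CPM at ZT9, 30.8, 31.6 and 32.9 CPM at ZT13, 40.0, 47.9 and 37.4 CPM at ZT17, and 85.1, 90.2 and 51.3 CPM at ZT21. The 3 libraries at ZT21 lay above the other 15. The fit gave 1.13 ± 0.24 with a peak at ZT21 (adjusted p = 0.00693). The overlapping BAT region had 0.14 ± 0.06 (adjusted p = 0.234); the difference between these rhythms was not tested. The other 2 called in WAT had 0.42 ± 0.10 (chr6:88727035-88727185, peak at ZT20.2) and 0.46 ± 0.13 (chr6:88754816-88754966, peak at ZT20.4), and the 3 called in BAT had sizes of 0.41 to 0.45. The second of these WAT calls was lost when any 1 of 12 libraries was left out (adjusted p up to 0.148) and with time as a factor (0.0877). In BAT the call at chr6:88742877-88743027 was lost without any 1 of 5 libraries (adjusted p up to 0.0966). Abhd5 had 1 called region in BAT (0.55 ± 0.16, adjusted p = 0.0422). Its call was lost when any 1 of 11 libraries was left out (adjusted p up to 0.0907), with a replicate block (0.0567) and with time as a factor (0.0820). Lipe, Plin1, Plin4, Plin5 and Cidec had no called region in either depot. Of the regions nearest to their start sites, those of Lipe and Plin4 had the highest tag counts. Lipe averaged 98.0 ± 6.39 CPM over the 18 BAT libraries and 143 ± 11.1 CPM over the 18 WAT libraries. Plin4 averaged 104.5 ± 4.72 CPM in BAT with 130 ± 9.49 CPM in WAT (SD, each scaled within its depot, so not compared). In BAT the others averaged 62.2 CPM for Plin1, 53.7 CPM for Cidec and 45.9 CPM for Plin5. For Lipe the fitted size was 0.15 ± 0.05 in BAT (adjusted p = 0.109) and 0.10 ± 0.07 in WAT (adjusted p = 0.551). In the same position, Plin1 had 0.28 ± 0.08 in WAT (adjusted p = 0.0511) and Plin5 had 0.25 ± 0.08 in BAT (adjusted p = 0.0808), with no region given to Plin5 in WAT.

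Left out one at a time, some WAT libraries changed the count of 6 regions to 3 (ZT1 replicate 2 or ZT5 replicate 1) or to 2 (ZT5 replicate 2 or ZT17 replicate 2). Calls over all WAT regions were then 3240 to 4068 with any single library left out, against 3968 with all libraries. Regions found in both depots, overlapping by at least 75 bp, could be compared in level. Of 24 such pairs, 3 were called at 2-fold, all higher in BAT, against 7.13% of 21626 pairs, 3.58% higher and 3.56% lower. Each pair counts tags in 2 separate 150 bp regions that can be offset, and the part of the offset was not tested. With an overlap of at least 140 bp, 0 pairs of these genes were called. Both pairs with the largest differences were at Plin2. They lay in its last exon by the deposited annotation, with 1.22 ± 0.08 (adjusted p = 9.83e-18), and at -20421 bases from the start site, with 1.10 ± 0.06 (adjusted p = 3.33e-20). The Plin2 start site pair had 0.13 ± 0.05. The third was the Mgll intron region just described, with 1.04 ± 0.09 (adjusted p = 4.75e-14), and 0.99 without WAT ZT9 replicate 2. Mgll RNA was lower in BAT, and its start site pair was also lower, with -0.37 ± 0.06 (adjusted p = 1.67e-06), under the 2-fold limit. The other Mgll pairs went both ways, with -0.40 and -0.42 lower in BAT and 0.20, 0.64, 0.82 and 1.04 higher.

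**Figure D4:**
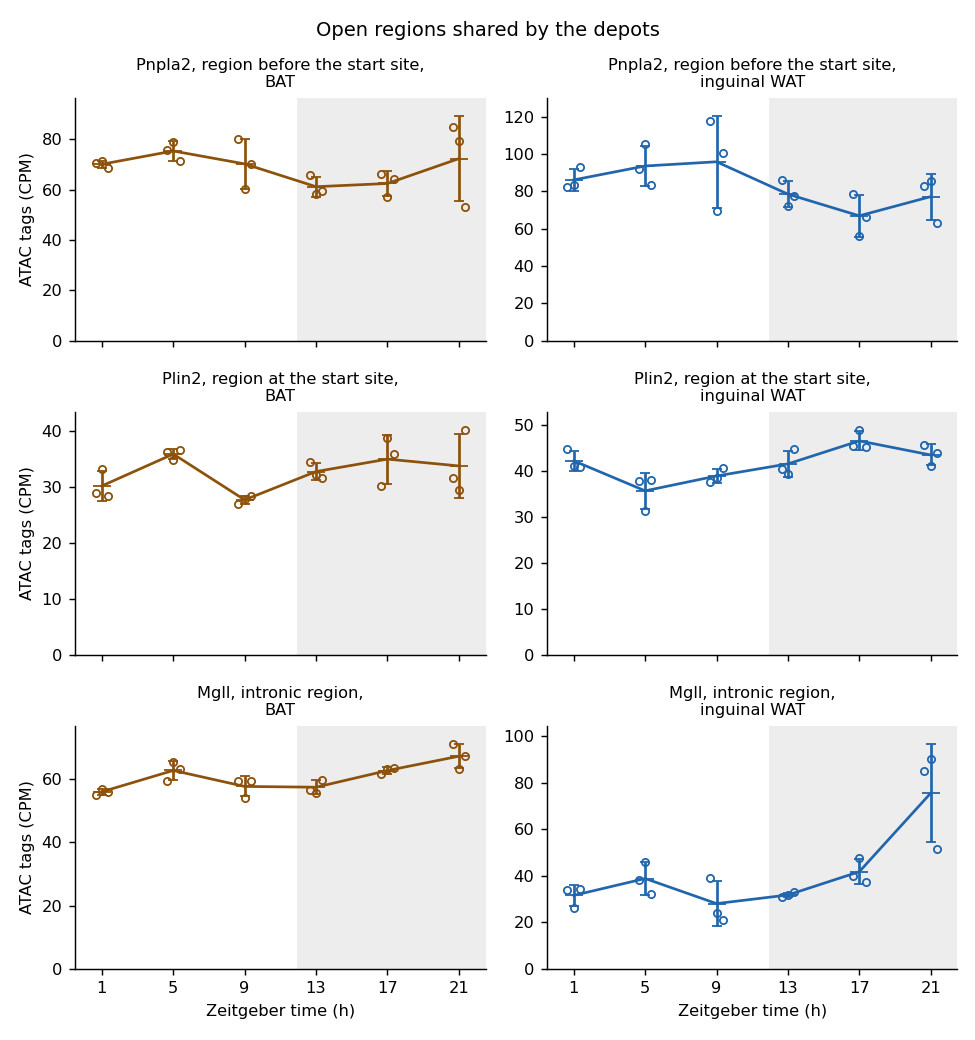
ATAC tags (y axis, CPM, scaled within each depot, so heights are not compared between columns) against Zeitgeber time (x axis, h) at 3 regions found in both depots, in BAT (left, brown) and inguinal WAT (right, blue); circles are libraries, lines join means of 3, bars are ± SD, and grey marks ZT12 onward. The Mgll intron region reached 51.3 to 90.2 CPM at ZT21 in WAT, above the 15 other WAT libraries.

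Among the 5 genes whose log2 level followed G0s2 most closely over the 17 BAT libraries were Miga2, Ppp1r3c, Slc33a1 and Cidec, with Spearman's rho of 0.82 to 0.87 among 12393 genes. In WAT they were Naca, Ubxn6, Lag3, Gys1 and Serhl (0.95 to 0.96, 18 libraries, 12702 genes). For Pnpla2 they were Med9, Bag6, Foxred1, C030006K11Rik and Hsd17b10 in BAT (0.94 to 0.96), and in WAT they included Aldh2, Micall1, Idh3b and Eif4ebp1 (0.897 to 0.905). No gene was on the lists of both depots, but lists of 5 among 12393 and 12702 genes are too short to compare the depots. Libraries share depth and ribosomal RNA content, and these values are a description.

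The list of other genes of the pathway had 54 members. In BAT 13 of 52 tested were rhythmic, against 9.17% of all genes, 8 of them in the upstream signal. Adora1, an adenosine receptor that restrains lipolysis, peaked at ZT13.5 (1.16 ± 0.15, adjusted p = 8.64e-04). Hcar2 and Hcar1, receptors through which ketone bodies and lactate restrain lipolysis, peaked at ZT1.6 (2.54 ± 0.53, adjusted p = 0.0184) and ZT0.7 (1.76 ± 0.36, adjusted p = 0.0180). Irs1, of insulin signalling, peaked at ZT23.5 (1.97 ± 0.30, adjusted p = 0.00245). Aqp7, the glycerol channel, peaked at ZT5.9 (0.70 ± 0.15, adjusted p = 0.0219), and the droplet proteins Bscl2 at ZT21.6 (0.82 ± 0.19), Cidea at ZT12.7 (0.73 ± 0.17) and Cideb at ZT22.2 (1.38 ± 0.34) were called with adjusted p of 0.0297 to 0.0416. Also called were Adrb3, Npr1 (1.05 ± 0.24), Npr3 (0.73 ± 0.18) and the transcription factor Cebpa (1.15 ± 0.25). In WAT 3 of 51 were rhythmic, against 9.90% of all genes: Adora1 at ZT17.5 (1.94 ± 0.34, adjusted p = 0.00476), and the lipases Ces1d at ZT22.8 (2.57 ± 0.56, adjusted p = 0.0156) and Ddhd2 at ZT20.1 (1.91 ± 0.33, adjusted p = 0.00440). The rhythm differed between depots for 10 of 52, against 12.9% of all genes, with amplitudes of 0.46 to 1.50. They were Ces1d (1.50 ± 0.33, adjusted p = 0.0149), the fatty acid carriers Fabp4 (1.26 ± 0.33, adjusted p = 0.0297) and Fabp5 (1.07 ± 0.25, adjusted p = 0.0159), Ppara (1.09), Cav1 (0.89), Cebpa (0.85), Ddhd2 (0.80), Adora1 (0.78), Adrb3 (0.73) and Prkar2b (0.46).

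Between depots 27 of 52 of these genes were called, 18 higher and 9 lower in BAT, against 47.3% of all genes, 23.1% higher and 24.2% lower. Higher in BAT were the droplet proteins Cidea (4.25 ± 0.25, adjusted p = 1.15e-17) and Hilpda, another inhibitor of Pnpla2 (2.89 ± 0.21, adjusted p = 1.05e-14), and the glycerol kinase Gk (2.40 ± 0.26, adjusted p = 2.53e-10). Lower in BAT were Ffar2, a short-chain fatty acid receptor (-5.36 ± 0.27, adjusted p = 1.64e-19), and Pde3b, the phosphodiesterase through which insulin restrains lipolysis (-1.91 ± 0.16, adjusted p = 4.35e-13). Also higher in BAT were Cideb (4.24), Ppara (3.32), Adcy3 (2.24), Aqp7 (2.02), the receptor Adrb1 (1.81), Pparg (1.75), Adora1 (1.53), Pde4d (1.50), Prkaca (1.37), Npr1 (1.30), Akt2 (1.21), Plin3 (1.15), Ces1d (1.11) and Prkar2b (1.02), as log2 differences. The other 7 lower in BAT were Cavin1 (-2.30), the lipoprotein lipase Lpl (-1.64), Insr (-1.56), Ces1f (-1.42), the lysosomal lipase Lipa (-1.35), Hcar2 (-1.08) and Fabp5 (-1.06). In the dark 1 of 52 was called in BAT, against 1.30% of all genes and 0.444% lower, where Aqp7 fell by 0.49 ± 0.10 (adjusted p = 0.0206). In WAT 3 of 51 rose in the dark, against 4.34% of all genes higher and 7.50% in either direction: Adora1 by 1.12 ± 0.22 (adjusted p = 0.00795), Ddhd2 by 0.73 ± 0.21 (adjusted p = 0.0387) and Pparg, the adipocyte transcription factor, by 0.73 ± 0.22 (adjusted p = 0.0402).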

How the data were processed

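RNA was measured in 35 libraries and open chromatin in 36. The authors deposited expected counts per Ensembl gene, not normalized, and TPM per library; RSEM 1.3.0, STAR 2.7.5, HOMER, DESeq2, limma and the mm10 build and, on the ChIP samples, Bowtie2 2.4.1 are named, with no role, in the submitters' processing notes. Per the file headers, the ATAC tables hold raw tag counts in 150 bp regions of one peak set per depot, counted with HOMER. The BMAL1 table gives, per the file headers, a HOMER peak score of one set pooled over both libraries and the log2 of each library's scaled tags, printed here on the linear scale. The authors also deposited JTK_CYCLE p-values and q-values. Distances to a start site are the deposited annotation's. The use of strand in counting is not stated in the labels, so overlapping antisense genes are uncertain. 1 column of no listed sample was left out, and the ChIP input was not used here.

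Expected counts were rounded. Symbols were matched for 55394 of 55487 genes. With edgeR 4.0.16 in R 4.3.3, libraries were scaled by TMM, genes kept by filterByExpr, and quasi-likelihood models fitted to all genes or regions, with Benjamini-Hochberg adjustment. CPM of RNA are scaled over all 35 libraries, and those of ATAC within a depot. Depots were compared with time as a factor. For a log2 difference the SE was computed as size over the square root of F; that of a rhythm size comes from the delta method scaled to F. Log2 CPM plus 0.5 entered the correlations, with 100000 resamples. The fits were tested on simulated counts with 200 changed genes or regions. For the RNA rhythms, a peak-to-trough difference of 2 on the log2 scale was recovered for 92% of changed genes in BAT and 43% in WAT. A rhythm of that size can thus be missed in WAT. Overlaps used bedtools 2.31.1, figures matplotlib 3.10.9, and promoter sequences are RefSeq's (GRCm38.p6). The rule named all 10 genes, the other pathway genes that passed a test, and per gene the open regions nearest the start site, highest or called; some genes it names are not reported here. The genes, lists and tests were chosen with earlier results of these data known. Alternatives were another scaling, no filter, DESeq2 1.42.0, time as a factor, a replicate block, no minimum fold, other overlaps and distances, no mitochondrial genes and ribosomal RNA loci, and leaving out libraries.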

Additional observations from a re-analysis of the deposited data

Results flagged for a closer look

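The rhythm of 3 of the 10 genes differed between BAT and WAT by the test of the difference itself. The amplitude of that difference was 1.30 for Plin2, 1.08 for Pnpla2 and 0.542 for Plin1 on the log2 scale. For Plin2 the highest time mean was 2.07 times the lowest in BAT and 6.50 times in WAT, and for Pnpla2 these were 1.82 times in BAT and 3.37 times in WAT. For Plin1 they were 1.53 times in BAT and 1.92 times in WAT, and its adjusted p of 0.0482 passed the threshold narrowly. The share of ribosomal RNA loci was 0.813% to 4.64% for BAT libraries and 5.26% to 66.0% for WAT libraries. Without mitochondrial genes and ribosomal RNA loci, Plin2, Pnpla2 and Plin1 kept these calls.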

How the results depend on the processing

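No called value changed its direction or moved its peak by over 6 h under the alternatives run. Time as a factor gives no peak time, so a moved peak could not be seen under it. Counts moved by over 1.5 times as follows. Without a filter on low counts, 1754 genes were called rhythmic in BAT (5 of the 10), 3046 in WAT, 2156 for the depot difference of rhythm, 11706 for the depot level, 471 for dark against light in BAT and 1457 in WAT. DESeq2 called 2455, 2096 and 2690 genes for the rhythms in BAT and WAT and their difference, 352 and 1574 for dark against light in BAT and WAT, and 10 WAT regions of these genes. Time as a factor gave 617 genes in BAT (1 of the 10) and 14063 BAT regions (18 of 39). Without the 3 WAT libraries rich in ribosomal RNA loci, 2689 genes were rhythmic in WAT (7 of the 10), 3641 differed in rhythm (7 of the 10) and 2845 differed between dark and light (6 of the 10). No minimum fold gave 8272 genes (9 of the 10) and 16294 shared regions (21 of 24). An overlap of 140 bp gave 897 shared regions, and 0 of these genes, whose 3 called pairs overlap by less. Regions within 10 kb of the start site included 1 called in BAT. The upper part of BMAL1 scores, above the median of the list, held 6 of 10 peaks. Leaving out each library gave 460 to 3383 rhythmic genes in BAT (2 to 5 of the 10), 472 to 2519 in WAT (2 to 6), 571 to 3015 for their difference (2 to 6), 59 to 194 for dark against light in BAT (1 to 2), 188 to 2013 in WAT (2 to 5), and 2 to 8 called WAT regions of these genes. Within a depot, libraries of one replicate number at different times were not alike: the median correlation of their deviations was 0.056 in BAT RNA and 0.025 in WAT RNA. Whether BAT and WAT libraries of one time and number came from one mouse was not tested. The depot comparisons treated them as separate. With a replicate block, 812 genes were rhythmic in BAT and 1348 in WAT, with 3 of the 10 in each; Cidec lost its dark call in BAT, leaving 1 (adjusted p = 0.0526), Plin1 its depot difference (0.0578), and Plin5 gained a dark call in WAT (0.0294); the called regions of Abhd5 in BAT (0.0567) and of the Plin2 start site in WAT (0.0518) lost theirs, with 5 regions called in BAT and 7 in WAT. Limits: with 2 or 3 libraries per time, counts of calls depend on single libraries, WAT depth limits Plin5 most, and 1 day of 6 times cannot tell a circadian rhythm from another change over the day.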

Other observations

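In WAT an intronic region of Abhd5 varied widely between libraries of one time. It lies 1929 bases after the start site (chr9:122353470-122353620) and had 49.1, 70.3 and 20.4 CPM at ZT5, 73.3, 18.4 and 36.3 CPM at ZT9, and 77.7, 82.0 and 14.2 CPM at ZT21, while the 3 libraries of ZT13 had 9.67, 10.7 and 10.7 CPM. ZT21 replicates 1 and 2, the highest there, were also the highest at the Mgll intron region, with 85.1 and 90.2 CPM. The start site region of Abhd5 ranged from 57.8 to 89.9 CPM in the 18 WAT libraries. BAT had no region given to Abhd5 in this intron.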
